A study of Mus musculus with 6 samples.

Results

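*Zbtb16* encodes PLZF, a transcription factor of NKT cells and of NKT-like γδ T cells, and its transcript was followed here through every class of reads in 6 RNA sequencing (RNA-seq) libraries of mouse γδ thymocytes. The gene was picked by name and is 1 of 41195 genes in the tables. There were 3 libraries labelled *Rag1Cre-Nfatc1fl/fl* (KO), whose *Nfatc1* alleles carry loxP sites and which express the recombinase Cre under control of the *Rag1* locus in early thymocytes, and they were set against 3 labelled *Nfatc1fl/fl* (control), which carry the same floxed alleles and no Cre. Per the methods of the study, mice were on a C57/B6 background, 4 to 6 weeks old and matched for age and sex. γδ thymocytes were enriched with a magnetic TCRγ/δ kit and poly(A) RNA was sequenced from a library kit that does not mark strand. The study asked whether loss of NFATc1 in early thymocytes alters the differentiation of γδ thymocytes.

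PLZF belongs to the BTB-zinc finger family, whose members bind DNA through zinc fingers and use a BTB domain to pair with each other and to recruit corepressors. In mouse T cells PLZF is known as the factor that gives NKT cells, MAIT cells and a subset of γδ T cells their innate-like state, in which cells produce cytokines rapidly and leave the naive recirculating pool. It is also made by the precursors of innate lymphoid cells. Most other thymocytes have little of it.

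The libraries held 20734771 to 22638531 gene reads, and a read was counted in 17360 to 17915 genes per library. Whether each library stands for its own animals is not said in the labels, and p-values therefore reflect the variation among these 6 libraries, part of which may be technical. *Nfatc1* itself had 367, 437 and 310 CPM (reads relative to the TMM-corrected size of the library) in KO replicates 1, 2 and 3, against 197, 208 and 205 CPM in control replicates 1, 2 and 3, a log2 fold change of 0.87 (SE 0.128) with an edgeR adjusted p of 0.0028. The KO allele lacks exon 3 only, and the tables give reads per whole gene, so these values check neither the deletion nor the labels. The γδ constant region and CD3 genes were present in all libraries, with a summed level of 3025 to 3103 CPM in KO and 3097 to 3286 CPM in control. Of these 8 genes, *Trdc* and *Tcrg-C1* were called lower, and were named here after their values were seen. KO replicate 3 stood apart in the genes of double-positive thymocytes (8 genes including *Rag1*, *Cd8a* and *Cd4*), which summed to 496, 293 and 730 CPM in KO replicates 1, 2 and 3, against 501 to 511 CPM in control. It also had the highest sums of myeloid genes (138 CPM, against 35.1 and 55.7 CPM in the other KO libraries and 16.3 to 59.4 CPM in control) and of erythroid genes (52.4 CPM, against 7.79 and 16.1 CPM in the other KO libraries and 3.96 to 28.9 CPM in control).

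*Zbtb16* (ENSMUSG00000066687) lies on the minus strand of chromosome 9, from 48654297 to 48836222 in GRCm38. The gene spans 181926 bases and its annotated exons cover 5283 bases, or 2.90%, in 9 exons and 2 transcripts. No other gene of the tables overlaps it, and every *Zbtb16* read was counted as unique, so no read was shared with a copy or with an annotated antisense gene.

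*Zbtb16* was expressed at a higher level in γδ thymocytes labelled *Rag1Cre-Nfatc1fl/fl*. There were 2688, 3643 and 1837 *Zbtb16* gene reads in KO replicates 1, 2 and 3, against 432, 564 and 318 in control replicates 1, 2 and 3. Scaled to the libraries this was 123, 166 and 97.0 CPM in KO, against 18.6, 24.8 and 14.2 CPM in control. All KO libraries stood above all control libraries, and the lowest KO value was 3.91 times the highest control value. The mean was 129 ± 34.8 CPM in KO and 19.2 ± 5.35 CPM in control (SD, n = 3 each). In edgeR's quasi-likelihood test the log2 fold change was 2.75 (SE 0.255, 95% interval 2.16 to 3.34), a fold of 6.71, with a Benjamini-Hochberg adjusted p of 0.000366 over 13185 tested genes. Genes were called where the adjusted p was under 0.01 and the log2 fold change over 0.5 in size. By this rule 6.47% of tested genes were called higher and 3.51% lower. *Zbtb16* ranked 198 by log2 fold change among the tested genes, and also 198 by p.

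The spread between libraries of 1 genotype was wide and far above counting error. The coefficient of variation was 27.0% in KO and 27.9% in control, whereas reads of this number give 1.97% in KO and 4.88% in control from counting alone. Replicate 2 was highest and replicate 3 lowest in both genotypes. KO replicate 3, with the lowest *Zbtb16* level of the KO libraries, had the highest sum of double-positive thymocyte genes, and KO replicate 2, with the highest *Zbtb16* level, had the lowest. In control, with the same order for *Zbtb16*, these genes summed to 511, 501 and 506 CPM in replicates 1, 2 and 3. The part of double-positive thymocytes in the *Zbtb16* level was not tested. Without KO replicate 3 the log2 fold change was 2.93 (edgeR, adjusted p = 1.36e-05). In bulk RNA more *Zbtb16*-expressing cells and more *Zbtb16* RNA per cell cannot be told apart.

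**Figure D1:**
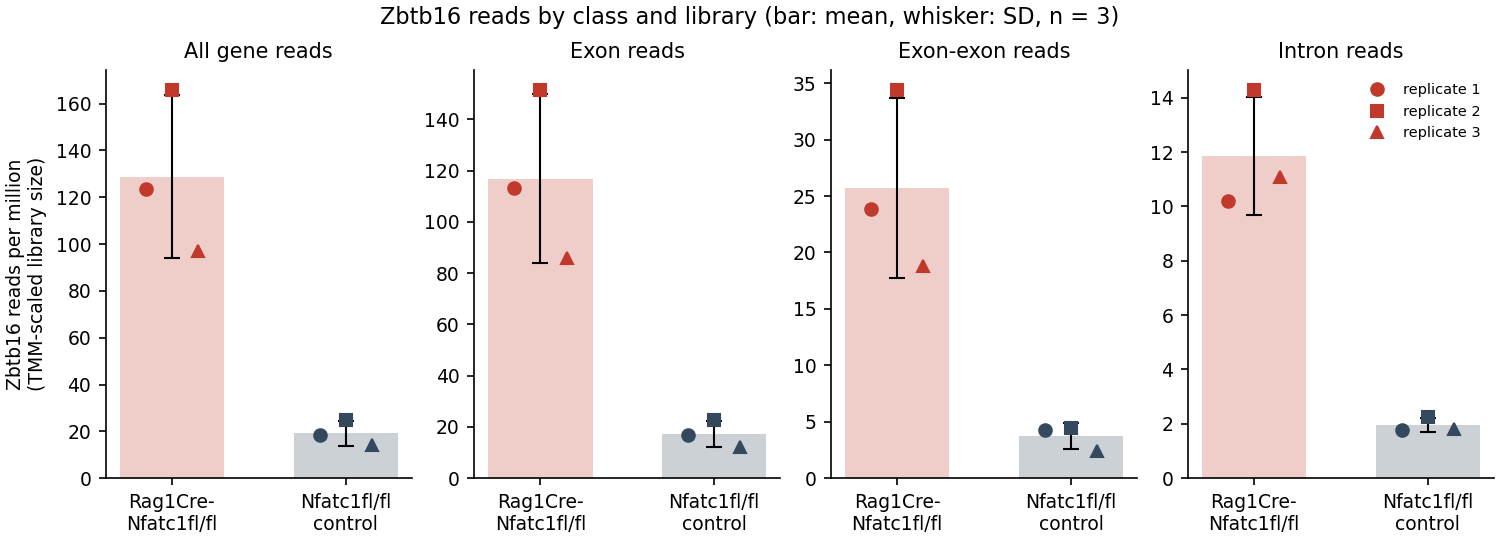
*Zbtb16* reads on the CPM scale (TMM library sizes) in each KO (left) and control (right) library, for all gene reads, exon reads, exon-exon reads and intron reads. Points are libraries, bars are means and whiskers are SDs (n = 3). In each class the 3 KO libraries lie above the 3 control libraries, by 3.91 times between the nearest libraries for all gene reads.

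The tables part the reads of a gene into those in exons, those that span an exon-exon junction and those in introns. Exon reads come mostly from spliced mRNA, junction reads only from spliced RNA, and intron reads from RNA that still holds introns or from other transcripts within the gene. All 3 classes of *Zbtb16* reads were higher in KO, by nearly the same factor.

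Exon reads of *Zbtb16* numbered 2466, 3329 and 1627 in KO replicates 1, 2 and 3, against 391, 513 and 277 in control. Their log2 fold change was 2.76 (SE 0.269, edgeR adjusted p = 0.000464), where 6.45% of 12532 tested genes were called higher on exon reads. Reads that span a junction, the strictest sign of spliced transcript, were 519, 756 and 356 in KO and 99, 102 and 55 in control. They gave a log2 change of 2.76 ± 0.278 (SE; edgeR, adjusted p = 0.00039), with 5.42% of 10792 tested genes called higher.

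Intron reads numbered 222, 314 and 210 in KO replicates 1, 2 and 3, against 41, 51 and 41 in control. Their log2 fold change was 2.68 (SE 0.217, edgeR adjusted p = 2.08e-07), and 2.76% of the 6158 genes tested on intron reads were called higher. By p, *Zbtb16* ranked 4 among those genes, and by log2 fold change 57. The nearest libraries of the genotypes stood 4.54 times apart in scaled intron reads. The coefficient of variation was 18.2% in KO and 13.4% in control, lower than in exon reads. With only 41 to 51 such reads per control library, the spread in control cannot be told from counting error. KO libraries held 210 to 314 such reads, where counting error is smaller.

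The change in exon reads and the change in intron reads were compared in one edgeR model over both classes. The exon change exceeded the intron change by 0.12 on the log2 scale (SE 0.239, 95% interval -0.38 to 0.62, adjusted p = 0.916 over 5737 genes), so the 2 changes were not separable at this depth. The interval leaves room for a difference of up to 1.53-fold. Among all genes of this test 0.366% were called, and 625 had an unadjusted p under 0.05. Without control replicate 3, in which *Zbtb16* had its highest share of intron reads, the difference was -0.024.

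Intron reads made up 8.26%, 8.62% and 11.4% of *Zbtb16* gene reads in KO replicates 1, 2 and 3, against 9.49%, 9.04% and 12.9% in control. The groups overlapped, and the means of 9.44% ± 1.74 in KO and 10.5% ± 2.11 in control (SD, n = 3 each) did not part in a two-sided exact permutation test (p = 0.5, where 3 against 3 libraries cannot go below 0.1). The 95% Wilson intervals of the shares, which cover counting error only, ran from 7.28% to 9.36% in KO replicate 1 and from 7.07% to 12.6% in control replicate 1. The mean difference, KO minus control, was -1.04 percentage points, and 0.17 without control replicate 3. Summed over all genes of a library, intron reads made up 1.94% to 2.15% of gene reads in KO and 2.33% to 2.53% in control. Of 503 transcription factor genes with at least 100 reads in each library, 46 had a higher mean intron share than *Zbtb16* in KO and 31 in control, with medians of 1.85% in KO and 1.65% in control.

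Per kilobase the introns of *Zbtb16* were still sparsely covered. Exons had 467, 630 and 308 reads per kilobase in KO and 74.0, 97.1 and 52.4 in control, whereas introns had 1.26, 1.78 and 1.19 in KO and 0.232, 0.289 and 0.232 in control. The ratio of exon to intron reads per kilobase was 328 ± 60.6 in KO and 294 ± 59.4 in control (SD, n = 3 each, exact permutation p = 0.5). The introns cover 176643 bases, and the tables do not give where in them the reads lie.

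Reads across a junction made up 21.0%, 22.7% and 21.9% of *Zbtb16* exon reads in KO replicates 1, 2 and 3, against 25.3%, 19.9% and 19.9% in control. The groups overlapped, with means of 21.9% ± 0.832 in KO and 21.7% ± 3.15 in control (SD, n = 3 each, two-sided exact permutation p = 1.0). This was close to the median of the 503 transcription factor genes, 23.0% in KO and 22.4% in control. It lay far below the share over all genes, which was 55.6% to 57.1% in KO and 51.1% to 53.2% in control.

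**Figure D2:**
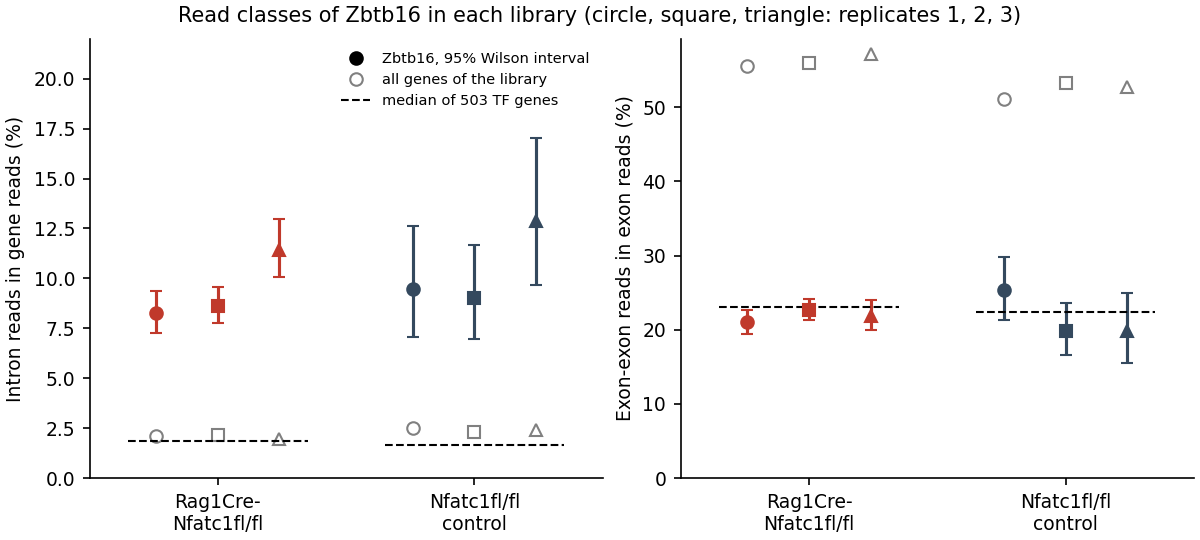
Share of intron reads among *Zbtb16* gene reads (left panel) and share of exon-exon reads among *Zbtb16* exon reads (right panel), in percent, in each KO and control library. Filled points with bars are *Zbtb16* with its 95% Wilson interval, open points are all genes of the library and dashed lines the median of 503 transcription factor genes. The KO and control points of *Zbtb16* overlap in both panels.

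The level of *Zbtb16* was next placed among transcription factor genes in TPM, a share of all transcripts of a library that corrects for exon length. *Zbtb16* had 55.8, 72.8 and 34.0 TPM in KO replicates 1, 2 and 3, against 8.22, 11.7 and 6.29 TPM in control. The list held 1104 genes chosen by symbol, of which 948 had a read and 747 were tested. Among them *Zbtb16* ranked 61, 38 and 81 in KO replicates 1, 2 and 3, against 359, 307 and 421 in control. By mean TPM its rank was 56 in KO and 355 in control. The ranks of the 2 genotypes did not overlap. Among all genes of a library it ranked 1729 to 3005 in KO and 6821 to 8301 in control.

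Replicate spread made these ranks loose. In KO the genes directly above *Zbtb16* in mean TPM were *Runx3* (55.2 ± 11.9 TPM), a factor of CD8 and innate lymphocytes, the liver X receptor gene *Nr1h2* (55.2 ± 8.20 TPM) and *Klf13* (54.8 ± 11.9 TPM). Directly below stood *Mef2d* (52.6 ± 9.29 TPM), the interferon factor gene *Irf7* (52.5 ± 6.20 TPM) and *Egr3* (51.8 ± 11.2 TPM), a factor induced by TCR signals, beside 54.2 ± 19.5 TPM for *Zbtb16* (SD, n = 3). None of these neighbours differed from *Zbtb16* beyond its spread, since the range of each overlapped its range. In KO 88 transcription factor genes overlapped it in range and 22 lay wholly above it.

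In control *Zbtb16* lay near the median of the transcription factor genes with at least 1 TPM, which was 9.57, 10.2 and 10.1 TPM in replicates 1, 2 and 3. *Zkscan5* (8.83 ± 0.458 TPM), *Zfp639* (8.81 ± 0.743 TPM) and *Homez* (8.81 ± 0.507 TPM) stood directly above *Zbtb16* (8.74 ± 2.75 TPM). *Zfp81* (8.74 ± 1.07 TPM), *Nfe2* (8.63 ± 0.657 TPM) and *Zfp958* (8.59 ± 1.09 TPM) stood directly below (SD, n = 3). All 6 overlapped it in range, as did 151 transcription factor genes in all, and 283 lay wholly above it.

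**Figure D3:**
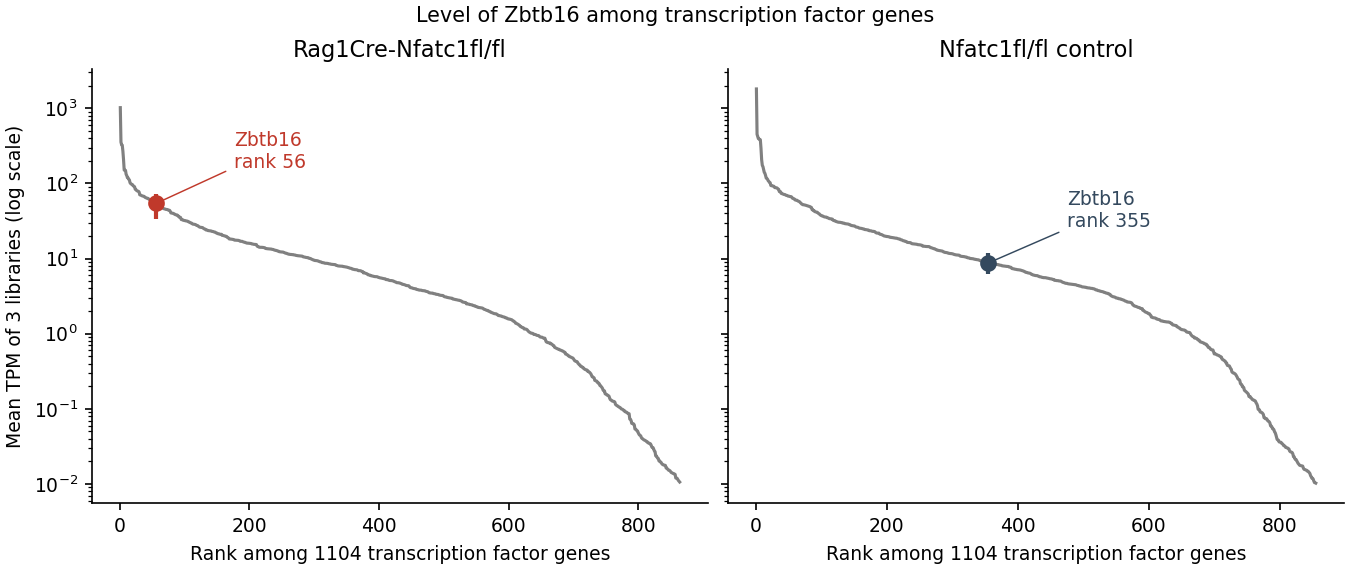
Mean TPM (log scale) of transcription factor genes ordered by rank in KO (left) and control (right), with *Zbtb16* marked and its range over 3 libraries drawn as a vertical line. Genes under 0.01 TPM are not drawn. *Zbtb16* stands at rank 56 of 1104 in KO and 355 in control.

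Few transcription factor genes moved as far. Of 747 tested, 30 (4.02%) were called higher and 62 (8.30%) lower, beside 6.47% and 3.51% of all tested genes. Their median log2 fold change was -0.27, beside -0.0069 over all tested genes. The count of genes called higher was 17 without control replicate 1 and 18 without control replicate 3. The count called lower was 40 without KO replicate 1, 13 without KO replicate 2, and 8, 10 and 7 without control replicates 1, 2 and 3. *Zbtb16* ranked 8 by log2 fold change and 7 by the number of ranks gained. Among the 7 genes called higher with a larger fold change, 3 had a mean of at least 5 CPM. These were *Zbtb7b*, which encodes the CD4 lineage factor ThPOK (log2 fold change 3.46, SE 0.235), *Hey1*, a target of Notch signals (3.70, SE 0.33), and the homeobox gene *Hhex* (2.96, SE 0.126), with edgeR adjusted p-values of 9.25e-05, 0.000305 and 1.57e-05.

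In TPM gained *Zbtb16* came second among the tested transcription factor genes. Its mean was 45.5 TPM higher in KO, next to 47.3 for *Nfatc1*, 41.1 for the growth regulator *Myc*, 38.8 for *Hhex* and 35.9 for *Zbtb7b*. *Zbtb16* made up 0.372%, 0.506% and 0.308% of the summed TPM of transcription factor genes in KO replicates 1, 2 and 3, against 0.0491%, 0.0652% and 0.0358% in control. That sum was itself lower in KO, at 14986, 14407 and 11046 TPM in replicates 1, 2 and 3, against 16736, 17963 and 17540 TPM in control.

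Within its own family *Zbtb16* and *Zbtb7b* were the members called higher. Of 46 BTB-zinc finger genes 43 were tested, and these 2 (4.65%) were called higher and 4 (9.30%) lower, beside 6.47% and 3.51% of all tested genes. The median log2 fold change of the family was -0.24. By TPM *Zbtb16* ranked 1, 1 and 4 in the family in KO replicates 1, 2 and 3, against 19, 17 and 23 in control. *Zbtb7b* had 85.2, 106 and 88.2 CPM in KO replicates 1, 2 and 3, against 7.49, 11.7 and 6.06 CPM in control, and no KO library overlapped a control library.

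The lower members were *Zbtb5*, *Patz1*, *Zbtb12* and *Zbtb1*, a factor that lymphocyte development needs. *Patz1*, which encodes a factor that restrains ThPOK in CD8 T cells, had 107 ± 7.81 CPM in KO and 154 ± 10.3 CPM in control (SD, n = 3 each), a log2 change of -0.53 ± 0.0935 (SE; edgeR, adjusted p = 0.00604). *Zbtb1* had 50.7 ± 8.50 CPM in KO and 79.5 ± 1.67 CPM in control, a log2 change of -0.65 ± 0.125 (SE; edgeR, adjusted p = 0.00906). These 4 calls were fragile, with 2 left without KO replicate 1 and 0 left without KO replicate 2 or without control replicate 1, 2 or 3. Of the members that were not called, *Zbtb22* and *Zbtb9* had the highest mean TPM, with log2 fold changes of 0.25 and -0.26.

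PLZF acts through partner proteins, chiefly the NCOR and SIN3 corepressors, histone deacetylases and the ubiquitin ligase scaffold cullin 3, which PLZF carries into the nucleus of mouse NKT cells. Of 17 genes on this list 16 were tested, and 1 (6.25%) was called higher and 2 (12.5%) lower, beside 6.47% and 3.51% of all tested genes. The median log2 fold change was -0.12. All 3 called genes encode class II histone deacetylases.

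*Hdac5* was higher, with 87.1, 98.8 and 77.2 CPM in KO replicates 1, 2 and 3, against 51.7, 48.2 and 44.8 CPM in control, a log2 change of 0.86 ± 0.113 (SE; edgeR, adjusted p = 0.00171). *Hdac7*, which encodes a deacetylase known to hold back PLZF-driven effector genes in mouse thymocytes, was lower, with 219, 206 and 203 CPM in KO against 339, 355 and 329 CPM in control. Its log2 fold change was -0.70 (SE 0.0802, edgeR adjusted p = 0.000896). *Hdac9* had 7.85 ± 1.39 CPM in KO and 16.0 ± 3.63 CPM in control (SD, n = 3 each), a log2 change of -1.02 ± 0.20 (SE; edgeR, adjusted p = 0.00937). The *Hdac5* call was lost without control replicate 1, 2 or 3, and the *Hdac9* call without KO replicate 1 or 2 or any control library. *Cul3* had 134 ± 27.6 CPM in KO and 141 ± 1.24 CPM in control, and *Hdac1* 270 ± 3.93 CPM in KO and 266 ± 7.13 CPM in control (SD, n = 3 each). For neither of these 2 genes did the adjusted p pass (0.752 and 0.871, edgeR).

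Genes known to act upstream of *Zbtb16* moved in both directions. Of 27 on the list 25 were tested, and 5 (20.0%) were called higher and 5 (20.0%) lower, beside 6.47% and 3.51% of all tested genes. The median log2 fold change was -0.15. The list was chosen with earlier results of these data known, so these shares are no independent evidence about regulators. *Id2* and *Hdac7* also stand in other lists. The higher genes were of 3 kinds, namely early growth response factors with their corepressor, a SLAM family receptor and an inhibitor of E proteins.

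EGR2 and EGR3 are induced by TCR signals and bind the *Zbtb16* promoter in mouse NKT precursors. *Egr3* had 90.6, 110 and 86.2 CPM in KO replicates 1, 2 and 3, against 32.2, 33.8 and 36.3 CPM in control (log2 fold change 1.49, SE 0.115, edgeR adjusted p = 0.000147). *Egr2* had 32.3, 44.2 and 34.5 CPM in KO, against 15.7, 15.4 and 17.9 CPM in control (1.18, SE 0.14, edgeR adjusted p = 0.00106). The *Egr2* call was lost without control replicate 1. In neither gene did the genotypes overlap, and KO replicate 2, highest for *Zbtb16*, was highest for both. In control the order differed, and replicate 3, lowest for *Zbtb16*, was highest for both. *Nab2*, the gene of an EGR corepressor, had 150 ± 8.38 CPM in KO and 81.9 ± 1.92 CPM in control (SD, n = 3 each). *Egr1* had 106 CPM in KO and 87.0 CPM in control and was not called (edgeR adjusted p = 0.0503).

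SLAM receptors signal through SAP and Fyn in the double-positive thymocytes that select NKT cells. *Slamf6* was higher, with 119, 145 and 113 CPM in KO replicates 1, 2 and 3, against 70.1, 73.5 and 71.7 CPM in control (log2 fold change 0.81, SE 0.109, edgeR adjusted p = 0.00192). The *Slamf6* call was lost without control replicate 1, 2 or 3. *Slamf1*, *Sh2d1a* (the gene of SAP) and *Fyn* were not called, with log2 fold changes of -0.28, -0.15 and 0.06.

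E proteins favour conventional fates of thymocytes and are held in check by ID proteins. *Id2* had 275, 326 and 320 CPM in KO replicates 1, 2 and 3, against 60.4, 66.4 and 58.9 CPM in control, a log2 change of 2.31 ± 0.103 (SE; edgeR, adjusted p = 1.83e-05). *Id3* had 212, 216 and 312 CPM in KO against 248, 253 and 283 CPM in control, with the genotypes overlapping. Both E protein genes were lower. *Tcf3* had 159 CPM in KO and 236 CPM in control (log2 fold change -0.57, SE 0.0878), and *Tcf12* 140 CPM in KO and 259 CPM in control (-0.89, SE 0.167), with edgeR adjusted p-values of 0.00347 and 0.00794. Both of these calls were lost without KO replicate 2 or without control replicate 1, 2 or 3. The other lower genes were *Hdac7*, the progenitor factor *Myb* and *Ezh2*, the gene of a histone methyltransferase whose loss expands PLZF-expressing cells in mice. The count of higher genes was 3 without control replicate 1. The count of lower genes was 3 without KO replicate 3 and 1 without KO replicate 2 or without control replicate 1, 2 or 3.

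Genes that are high in PLZF-expressing T cells were counted next. The list was drawn up with the study's text and earlier results of these libraries known and is no independent evidence of its direction. Of 33 genes 32 were tested, and 15 (46.9%) were called higher and 4 (12.5%) lower, beside 6.47% and 3.51% of all tested genes. The median log2 fold change was 0.77, and fits without 1 library called 11 to 16 members higher.

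Cytokine and helper genes had the largest changes. *Il13*, a type 2 cytokine gene, had 20.2, 26.2 and 23.5 CPM in KO replicates 1, 2 and 3, against 1.25, 0.968 and 0.579 CPM in control (log2 fold change 4.63, SE 0.243, edgeR adjusted p = 2.99e-05). *Il4* had 16.9 ± 2.99 CPM in KO and 1.19 ± 0.403 CPM in control (SD, n = 3 each). *Icos*, a costimulatory receptor gene that PLZF-expressing cells carry at a high level, had 542, 634 and 558 CPM in KO, against 43.3, 58.0 and 44.7 CPM in control (3.57, SE 0.144, edgeR adjusted p = 1.45e-05). *Cd40lg*, the gene of the helper ligand CD40L, had 29.5, 41.4 and 26.8 CPM in KO, against 2.41, 3.39 and 1.96 CPM in control (3.65, SE 0.246, edgeR adjusted p = 8.88e-05). KO and control libraries were far apart in all 4 genes.

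*Ccr2*, a chemokine receptor gene of effector cells, had 198, 206 and 171 CPM in KO replicates 1, 2 and 3, against 37.3, 36.2 and 35.5 CPM in control (log2 fold change 2.40, SE 0.099, edgeR adjusted p = 1.45e-05). *Cxcr3*, *Cxcr6*, *Klrb1a*, *Il18rap*, *Il7r*, *Tbx21*, *Cd4*, *S100a6*, *Id2* and *Zbtb7b* were also called higher. The *Il7r* call was lost without KO replicate 2 or without control replicate 1, 2 or 3, those of *Il18rap* and *Tbx21* without control replicate 1 or 3, and that of *Cxcr3* without control replicate 1. Other receptor genes of the list were not called, among them *Klrb1c*, which encodes NK1.1 (log2 fold change 0.26), *Klrd1* (0.33), *Klrk1* (-0.09) and *Il23r* (0.25). *Il18r1* had 82.1, 58.7 and 30.5 CPM in KO, against 24.5, 21.5 and 18.1 CPM in control, and missed the threshold (edgeR adjusted p = 0.0163). *Il2rb* and *S100a4*, the uncalled members of highest mean TPM, had log2 fold changes of 0.21 and 0.57.

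Among the lower members, *Rora* encodes a nuclear receptor of innate lymphocytes and IL-17-producing cells, *Il1r1* the IL-1 receptor and *Runx3* a factor of CD8 and innate lymphocytes. *Rora* had 24.7 ± 3.04 CPM in KO and 37.8 ± 3.30 CPM in control (SD, n = 3 each; log2 fold change -0.61, SE 0.119, edgeR adjusted p = 0.00913). *Maf*, which IL-17-producing γδ T cells need, had 220 ± 25.9 CPM in KO and 225 ± 22.2 CPM in control (SD, n = 3 each). *Gata3* had 200 ± 18.3 CPM in KO and 254 ± 5.67 CPM in control and was not called (edgeR adjusted p = 0.0298). The count of lower members was 1 without KO replicate 2 and 0 without KO replicate 1 or control replicate 1, 2 or 3.

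Genes that are low in PLZF-expressing T cells were chosen in the same way. Of 12 genes, all tested, 7 (58.3%) were called lower and 0 higher, beside 3.51% and 6.47% of all tested genes, and the median log2 fold change was -0.81. In this list no gene had an unadjusted p under 0.05 with a higher level in KO, and DESeq2 and limma-voom also called 0 higher.

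Most of these genes mark naive or immature cells. *Klf2*, the gene of a quiescence factor that drives *S1pr1*, had 76.4, 62.6 and 87.9 CPM in KO replicates 1, 2 and 3, against 135, 151 and 145 CPM in control (log2 fold change -0.93, SE 0.129, edgeR adjusted p = 0.00228). *Sox4* had the largest drop, with 265, 203 and 192 CPM in KO against 547, 545 and 487 CPM in control (-1.26, SE 0.135, edgeR adjusted p = 0.000696). *Ccr9*, *Cd24a*, *Il2ra* and *Tcf7*, genes of immature thymocytes, were also lower. The *Klf2* call was lost without control replicate 1, 2 or 3, that of *Tcf7* without these or KO replicate 2, and that of *Il2ra* without KO replicate 2 or control replicate 1 or 3. *S1pr1* and *Ccr7*, 2 exit and lymph node homing receptor genes, had log2 fold changes of -0.53 and -0.31 and were not called. The count of lower members was 4 without control replicate 1 and 4 without control replicate 3.

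**Figure D4:**
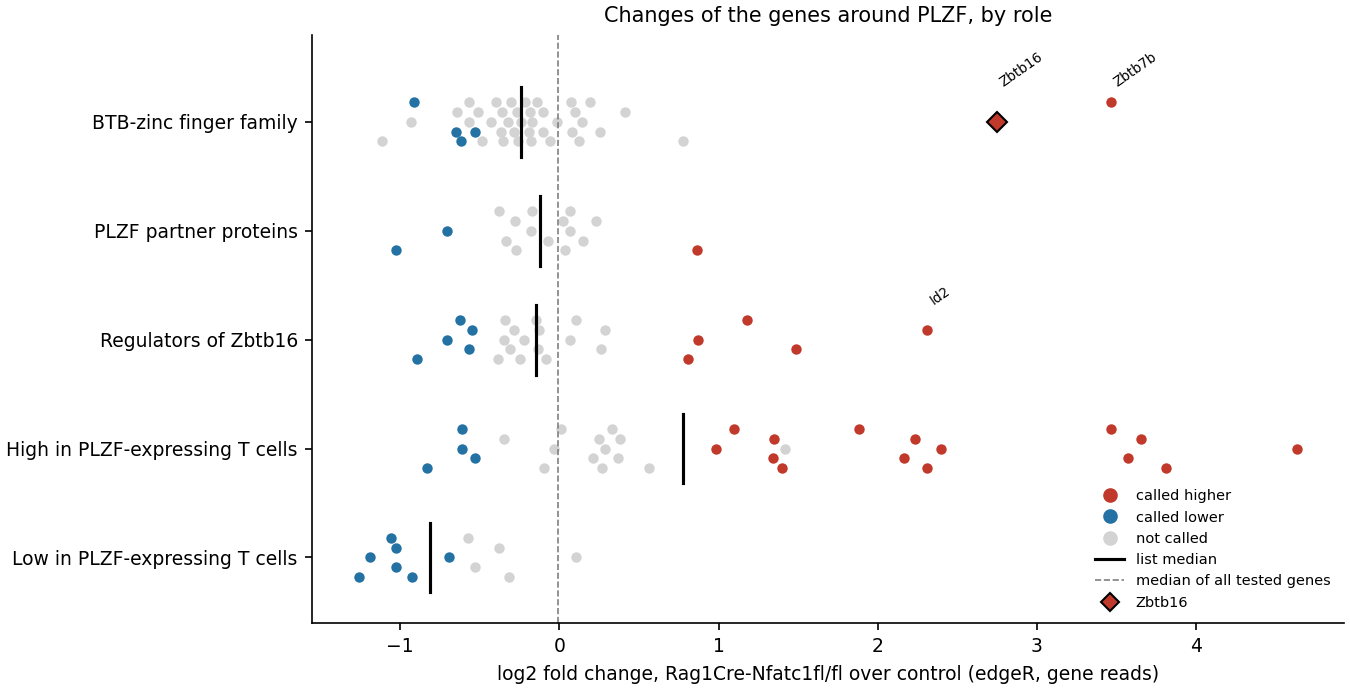
Log2 fold changes (KO over control, edgeR, gene reads) of the tested members of 5 gene lists, each point a gene and each row a list. Red points were called higher, blue points lower and grey points were not called, black lines are list medians and the dashed line is the median of all tested genes. *Zbtb16* and *Zbtb7b* are the family members called higher, the family's median is -0.24, and the 2 lists on PLZF-expressing cells have medians of 0.77 and -0.81.

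Other cells that express *Zbtb16* could be in the preparation, so their markers were read in the same libraries. *Trav11* and *Traj18*, TCRα segments of αβ NKT cells, had 0 reads in every library. *Trav11d*, also on the αβ and NKT list, was not at 0 in every library, and its level is not reported here. The zeros of *Trav11* and *Traj18* therefore do not show that αβ NKT cells were absent. The whole list summed to 962 to 1354 CPM in KO and 1226 to 1234 CPM in control. Of its 6 tested genes 0 were called by edgeR, DESeq2 or limma-voom and 2 had an unadjusted edgeR p under 0.05. These 2 were *Trac*, at 0.47 on the log2 scale, and *Trbv13-2*, at -0.41, named after their values were seen. *Traj33* of MAIT cells was at 0 in every library and *Trav1* at 0.0528 CPM or less. Genes of group 2 innate lymphoid cells summed to 14.9, 16.2 and 13.4 CPM in KO replicates 1, 2 and 3, against 7.32, 6.20 and 6.95 CPM in control. Of 6 tested genes edgeR called 2, both higher, DESeq2 called 3 and limma-voom 2. An unadjusted edgeR p under 0.05 was found for 5. The 2 called by edgeR were *Klrg1* (0.597 ± 0.126 CPM in KO and 0.0733 ± 0.0263 CPM in control) and *Calca* (1.23 ± 0.353 CPM in KO and 0.22 ± 0.118 CPM in control), named after their values were seen. Genes of group 3 innate lymphoid and NK cells summed to 90.1 to 119 CPM in KO and 105 to 107 CPM in control, with 0 of 5 tested genes called by edgeR, DESeq2 or limma-voom and 1 at an unadjusted edgeR p under 0.05. The part of these cells in the *Zbtb16* result was not tested.

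Mast cell and basophil genes (128 to 162 CPM in KO, 229 to 243 CPM in control) and B cell genes (110 to 129 CPM in KO, 221 to 228 CPM in control) were lower in sum in KO. Only 2 of the 8 mast cell and basophil genes and 2 of the 6 B cell genes had enough reads to be tested. Of these, 1 of 2 and 2 of 2 were called lower. The sums thus rest on few genes and do not measure the content of these cells. Of 7 myeloid genes tested 0 were called by edgeR, with 2 at an unadjusted p under 0.05 and 1 called by DESeq2. Of 4 erythroid genes tested 0 were called by edgeR, DESeq2 or limma-voom, and 0 had an unadjusted edgeR p under 0.05. Among 8 double-positive thymocyte genes *Cd4* alone was called by edgeR, which was higher and is also on the list of PLZF-expressing cells.

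The genes whose profile over the 6 libraries lay nearest to that of *Zbtb16* were found by the root mean square difference of log2(CPM + 0.5), centred on the mean of the 6 libraries, among 9457 genes of at least 5 CPM. The 8 nearest were *Arsb*, *Smtn*, *Lpcat4*, *Wscd2*, *Vdr*, *Atp8a2*, *Crmp1* and *Adam19*, at 0.133 to 0.231 from *Zbtb16*, where the median gene was at 1.41. *Arsb*, the gene of the lysosomal enzyme arylsulfatase B, had 181, 214 and 148 CPM in KO replicates 1, 2 and 3, against 27.6, 35.6 and 25.3 CPM in control. *Vdr*, the gene of the vitamin D receptor, was the nearest transcription factor gene and had 50.7, 70.0 and 57.0 CPM in KO, against 10.1, 11.5 and 7.48 CPM in control. Of the next in that class, *Zfp536* stood at 0.238, *Hhex* at 0.306, *Zfp683* at 0.348 and *Zbtb7b* at 0.395.

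All 8 genes were higher in every KO library than in any control library, which a profile like that of *Zbtb16* requires. *Arsb*, *Smtn*, *Lpcat4*, *Wscd2* and *Adam19*, or 5 of the 8, had its order of libraries within both genotypes, with replicate 2 highest and replicate 3 lowest. That order was found in 450 of the 9457 genes, or 4.76%. The 8 genes were picked for nearness over these same libraries, which favours a shared order, so these 2 shares are no test of likeness. The 6 libraries share genotype, preparation and depth, so likeness of profile is a description of these libraries.

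**Figure D5:**
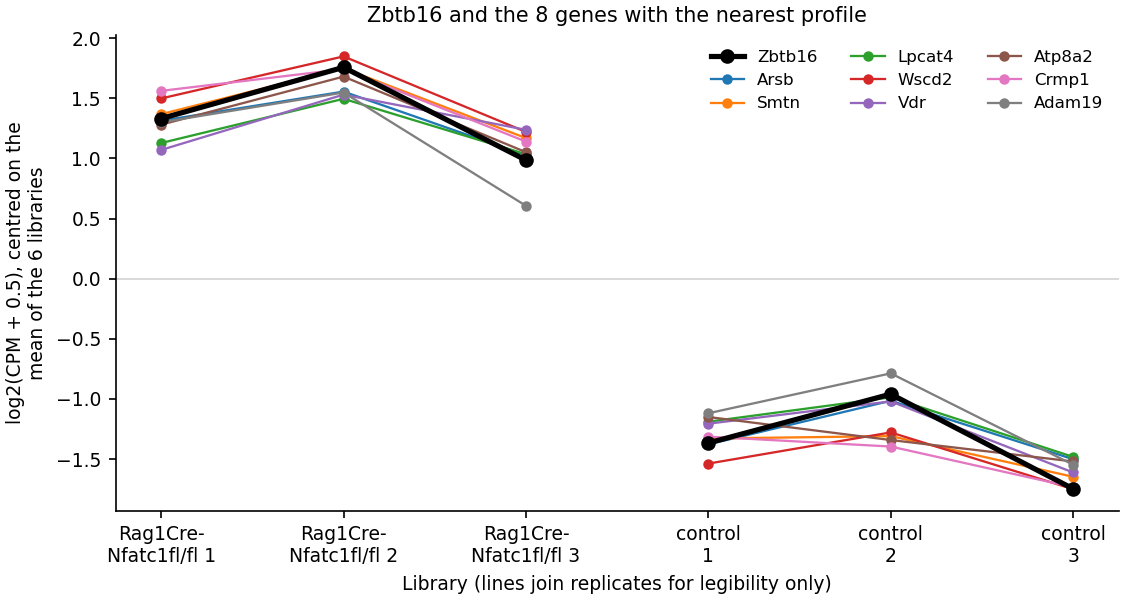
Log2(CPM + 0.5) of *Zbtb16* (black) and of the 8 genes nearest to it, centred on each gene's mean over the 6 libraries, with KO replicates on the left and control replicates on the right. The root mean square difference from *Zbtb16* is 0.133 for *Arsb* and 0.231 for *Adam19*, the first and last of the 8.

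Around *Zbtb16* on chromosome 9, of 16 other genes within 500 kb, 10 had reads and 6 were tested, and 1 was called, which was higher, beside 6.47% of all tested genes called higher. *Rexo2*, which encodes an oligoribonuclease and lies 173674 bases away, had 212, 237 and 303 CPM in KO replicates 1, 2 and 3, against 124, 132 and 124 CPM in control (log2 fold change 0.99, SE 0.135, edgeR adjusted p = 0.002). Its highest KO library was replicate 3, the lowest for *Zbtb16*. The *Rexo2* call was lost without control replicate 1, 2 or 3.

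The other neighbours tested were *Rbm7*, *Gm5617*, *Nxpe4*, *Usp28* and *Zw10*. *Nxpe4* had 1.83 ± 0.232 CPM in KO and 0.643 ± 0.283 CPM in control (SD, n = 3 each), with an edgeR adjusted p of 0.0198. *Usp28*, which encodes a deubiquitinase, had 17.4 ± 1.62 CPM in KO and 18.2 ± 0.952 CPM in control, and *Rbm7* 108 ± 23.7 CPM in KO and 103 ± 3.31 CPM in control. *Nnmt*, the nearest gene with a read at 49144 bases, had 2 reads in all, and *Nxpe2*, *Tmprss5* and *Gm4894* had 26, 13 and 1. *Htr3a* and *Htr3b*, serotonin receptor genes on the other side of *Zbtb16*, had 0 reads in every library.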

How the data were processed

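RNA-seq libraries (6) of γδ thymocytes were compared, with groups and replicate numbers taken from the labels. The deposited tables hold whole-number read counts per gene (gene, exon, exon-exon and intron reads, total and unique). Per the methods of the study, single-end reads were trimmed and mapped by STAR (GRCm38), and featureCounts and DESeq2 served for counting and testing. The deposited tables are laid out unlike featureCounts output, and what program made them is not given in these sources. TPM was recomputed from the exon counts and exon lengths of the authors' tables and differed from their TPM by at most 5.0e-07.

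The fit to the counts used edgeR 4.0.16 under R 4.3.3 (quasi-likelihood, with TMM, filterByExpr and no term but genotype), which had been checked on simulated counts. Its p-values were adjusted by Benjamini-Hochberg over all genes tested in a table, and 95% intervals came from the same fit. Of 41195 genes, 21780 had a read and 13185 were tested on gene reads. Genes were called where the adjusted p was under 0.01 and the log2 fold change over 0.5 in size, as in the study's methods. The common biological coefficient of variation was 0.154. Shares were compared with exact permutation tests. Total gene reads were 20734771 to 22638531 per library, of which 94.1% to 95.4% were unique.

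The gene, the lists and the rule for named genes were chosen with earlier results of these data known. The rule named up to 6 called members of each list by adjusted p and the 2 uncalled members of highest mean TPM, transcription factor genes with a larger fold change than *Zbtb16* and a mean of at least 5 CPM, 3 neighbours on each side in mean TPM, the 8 genes of nearest profile, genes within 500 kb with reads, and the members of the partner, regulator and PLZF lists. After the files were read, some list symbols were changed to the names used in the tables and the name pattern for Zbtb genes was corrected. Lists overlap: *Hdac7*, *Id2*, *Zbtb7b* and *Cd4* stand in more than one. Values of some list members are not reported here.

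Alternatives were DESeq2 1.42.0, limma-voom (limma 3.58.1), RLE or upper-quartile factors, no filter, fits without 1 library, a replicate block, unique reads, log2(TPM + 1) and log2(TPM + 0.1) in limma, CPM in place of TPM for ranks, and ranks without Zfp, Zscan and Zkscan genes. Figures were drawn with matplotlib 3.10.9.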

Additional observations from a re-analysis of the deposited data

How the results depend on the processing

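*Zbtb16* gene reads stayed called higher under all 15 alternatives, with log2 fold changes of 2.47 to 2.98 and a highest adjusted p of 0.00994, on log2(TPM + 0.1). Without 1 library the range was 2.52 to 2.98. Exon, exon-exon and intron reads stayed called under all 11 alternatives each. Leaving out 1 library gave a difference of exon and intron changes of -0.024 to 0.25, with -0.024 without control replicate 3, and a difference of intron shares of -2.04 to 0.17 percentage points, with 0.17 without control replicate 3. The rank of *Zbtb16* in control was 223 without Zfp, Zscan and Zkscan genes, a shorter list.

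Counts of list members moved more. DESeq2 called 96 transcription factor genes and 7 BTB-zinc finger genes lower, and limma-voom called 1 partner gene lower. Over fits without 1 library, 17 to 34 transcription factor genes were called higher and 7 to 78 lower, 0 to 5 BTB-zinc finger genes lower, 0 to 1 partner genes higher and 1 to 2 lower, 3 to 5 regulators higher and 1 to 4 lower, 0 to 3 genes high in PLZF-expressing cells lower, and 4 to 8 genes low in such cells lower. These fits have fewer libraries.

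With the replicate number as a block, 41 transcription factor genes, 2 BTB-zinc finger genes and 1 gene high in PLZF-expressing cells were called lower, and *Zbtb16* had a log2 fold change of 2.75 (edgeR, adjusted p = 2.44e-05). Libraries of the same number deviated from their group means with correlations of 0.026, 0.18 and 0.0055 across genes. KO replicates 1 and 2 each correlated best with the control library of the same number, and KO replicate 3 with control replicate 1 (0.094). The labels do not say whether the numbers mark pairs, and the main fit took them as names only.

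At this depth intron reads limit the comparison of exon and intron changes, since control libraries held 41 to 51 of them for *Zbtb16*. TPM and CPM are shares of a library and carry no amount per cell.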

Other observations

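PLZF-expressing γδ T cells of the mouse are known for receptors that join Vγ1 to Vδ6 chains, and the V segments of these chains were read in the same libraries. *Trav15d-1-dv6d-1* had 138, 171 and 149 CPM in KO replicates 1, 2 and 3, against 26.1, 33.2 and 23.4 CPM in control, a log2 change of 2.47 ± 0.152 (SE; edgeR, adjusted p = 5.42e-05). Replicate 2 was the highest library in each genotype, as it was for *Zbtb16*. *Trav15d-2-dv6d-2*, *Trav15-1-dv6-1* and *Tcrg-V1* had log2 fold changes of -0.76, -0.52 and 0.41, of which the first was called. Copies of this V family are nearly identical in sequence, so how reads were split between them is uncertain.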
